A study of Homo sapiens with 6 samples.

Results

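The genes described here are 10 members of the Notch pathway: the receptors NOTCH1, NOTCH2 and NOTCH3, the ligands JAG1, JAG2 and DLL1, and the target genes HES1, HES4, HEY1 and NRARP. They were taken by symbol, and all 10 were found among the 16809 genes of the deposited expression table. All 10 also had a mean of at least 1 TPM (a unit that gives each gene's transcripts, adjusted for gene length, as a fraction of a fixed library total) over the libraries, the minimum set for testing, which 11927 genes passed. The study sequenced total RNA of the line CAL-27, which was derived from a human squamous carcinoma of the tongue, in 2 groups of 3 libraries: an untreated control (CON), and cells given elesclomol together with copper in equal ratio for 24 h (ESCU, written ES-Cu here). Elesclomol is an ionophore that carries copper into cells, and the pair serves to induce cuproptosis, a form of cell death that depends on copper. The labels name no genetic alteration in either group, no dose was given in the sources used here, and nothing in the labels states that each library had its own culture. The p-values therefore reflect library-to-library spread, part or all of which may be technical. CAL-27 is a single tumour line, and the 24 h sample is the only time point.

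Notch signalling passes between cells that touch. A ligand of the Jagged or Delta type on one cell binds a Notch receptor on its neighbour, the receptor is cut by ADAM10 and then by gamma-secretase, and the freed intracellular domain joins the DNA-binding protein RBPJ and a Mastermind coactivator at target genes. The HES and HEY genes, which encode bHLH repressors, are the classical targets, and NRARP encodes a small ankyrin repeat protein that is induced by Notch and in turn limits the intracellular domain. In stratified squamous epithelium the pathway is known for promoting differentiation, and NOTCH1 is often mutated in squamous carcinomas of the head and neck.

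The DNA just upstream of 3 target genes is shown because the target genes did not move alike. NRARP rose, while HES1 and HES4 were called lower as deposited but in neither of the other scalings described below. Whether the letters bear on these changes was not tested. Each line gives the 250 bases before the RefSeq transcription start (build GRCh38.p14), 5′ to 3′ on the strand of the gene. Capitals mark the core of an RBPJ site, TGGGAA, and a longer site form, GTGNGAA, on either strand; the forms overlap where a site holds both, and the longer form was chosen after the HES1 letters had been read. The HES1 window is chr3:194135898-194136147 (plus strand), that of HES4 is chr1:1000098-1000347 (minus strand) and that of NRARP is chr9:137302272-137302521 (minus strand).
HES1: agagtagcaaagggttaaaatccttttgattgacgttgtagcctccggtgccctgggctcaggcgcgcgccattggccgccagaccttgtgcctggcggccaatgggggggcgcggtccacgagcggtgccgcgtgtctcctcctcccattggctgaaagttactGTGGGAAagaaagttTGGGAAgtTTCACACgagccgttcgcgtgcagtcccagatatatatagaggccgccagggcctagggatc
HES4: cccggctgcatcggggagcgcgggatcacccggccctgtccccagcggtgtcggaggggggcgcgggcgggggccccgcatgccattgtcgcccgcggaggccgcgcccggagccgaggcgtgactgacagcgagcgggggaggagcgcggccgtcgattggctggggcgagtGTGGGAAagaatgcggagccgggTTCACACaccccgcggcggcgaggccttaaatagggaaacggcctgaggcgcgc
NRARP: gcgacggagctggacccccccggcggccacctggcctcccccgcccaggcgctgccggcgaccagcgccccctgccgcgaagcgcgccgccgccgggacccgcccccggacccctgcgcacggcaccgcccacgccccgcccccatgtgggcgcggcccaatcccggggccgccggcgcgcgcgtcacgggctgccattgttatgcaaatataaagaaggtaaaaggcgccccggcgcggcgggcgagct

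Upstream windows were found for 8 members, all but DLL1 and HEY1. The core TGGGAA, on either strand, was present in 2 of the 8, HES1 and HES4, in 21.1% of 27305 promoter windows of the same length, and in 19.4% of the 9821 windows that belonged to tested genes. The longer form GTGNGAA was in the same 2 windows in 11.8% of all windows and in 9.93% of those of tested genes. In both genes it stood once on the gene strand and once reversed, 23 bases further on: at bases 85 to 79 and 62 to 56 before the start in HES1, and at bases 77 to 71 and 54 to 48 in HES4. A forward form followed within 40 bases by a reversed one occurred in 24 of the 27305 windows (0.0879%) and in 6 of the 9821 windows of tested genes (0.0611%). Of the 24, 3 had the 23-base distance, HES1, HES4 and ITIH4. The RefSeq starts of NRARP, NOTCH1, NOTCH2 and NOTCH3 did not lie in a transcript of the GENCODE annotation, whereas those of HES1, HES4, JAG1 and JAG2 did. The NRARP window held neither form. It held 1 match to the metal response element written as TGCGCNC, at bases 136 to 130; this form or TGCACNC, on either strand, was present in 4 of the 8 member windows (NOTCH1, JAG1, HES1 and NRARP), in 33.3% of the windows of tested genes and in 24.7% of all windows. No member window held the AP-1 motif TGANTCA (3.97% of the windows of tested genes and 6.60% of all) or a heat shock element of the units GAA, TTC and GAA with any 2 bases between units (0.265% and 0.440%), also searched on both strands. Such matches describe letters in a short window and were not tested as binding sites.

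The sequencing depth is unknown, because read totals cannot be recovered from TPM. Log2 values of libraries correlated across tested genes at 0.994 to 0.995 for libraries of the same group and at 0.937 to 0.939 across groups; genes do not count as independent replicates there. The median tested gene had a log2 fold change of -0.50 (ES-Cu over control) on the deposited scale, 0.00 under median-of-ratios scaling and -0.07 under quantile normalization. A gene is therefore said to rise or fall only where limma's test called it with the same sign in all 3 scalings. Of 8 squamous epithelial markers, all were detected in every library, with KRT5 at 853 ± 22.8 TPM and KRT14 at only 4.73 ± 0.440 TPM in control (mean ± SD, n = 3, as throughout), and their sum ranged from 2071 to 2140 TPM in control and from 1800 to 1836 TPM in ES-Cu. The 4 fibroblast markers in the table summed to 11.4 to 11.6 TPM in control and 4.69 to 5.23 TPM in ES-Cu, and the 4 endothelial markers to 7.14 to 7.47 and 1.28 to 1.90 TPM, nearly all of it CDH5. The 3 leukocyte markers in the table summed to 60.3 to 67.2 and 49.0 to 54.3 TPM, nearly all of it CD68, while PTPRC, which defines leukocytes, stayed between 0 and 0.04 TPM.

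Within the 10 genes, NRARP rose and NOTCH3, JAG2 and DLL1 fell, while NOTCH1 and JAG1 stayed near their control levels on the deposited scale and NOTCH2, HES1, HES4 and HEY1 were called lower there but in neither of the other scalings. As deposited, 1 of the 10 was called higher and 7 were called lower (limma-trend, adjusted p under 0.05 by Benjamini-Hochberg), against 13.6% and 70.0% of all tested genes. In all 3 scalings 1 of 10 was higher and 3 were lower, against 13.5% and 30.5% of tested genes. The ES-Cu libraries lay wholly above the control libraries for 1 member and wholly below for 7, against 14.0% and 70.3% of tested genes, and the groups overlapped for the other 2. After median-of-ratios scaling 4 members were called higher and 3 lower (38.0% and 35.8% of tested genes), and after quantile normalization 3 and 3 (31.7% and 39.2%). The shares of members are thus close to those of all genes, and the median member, at -0.54, lay next to the median gene. In bulk RNA such as this, fewer cells that express a gene and less RNA per cell cannot be told apart.

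**Figure D1:**
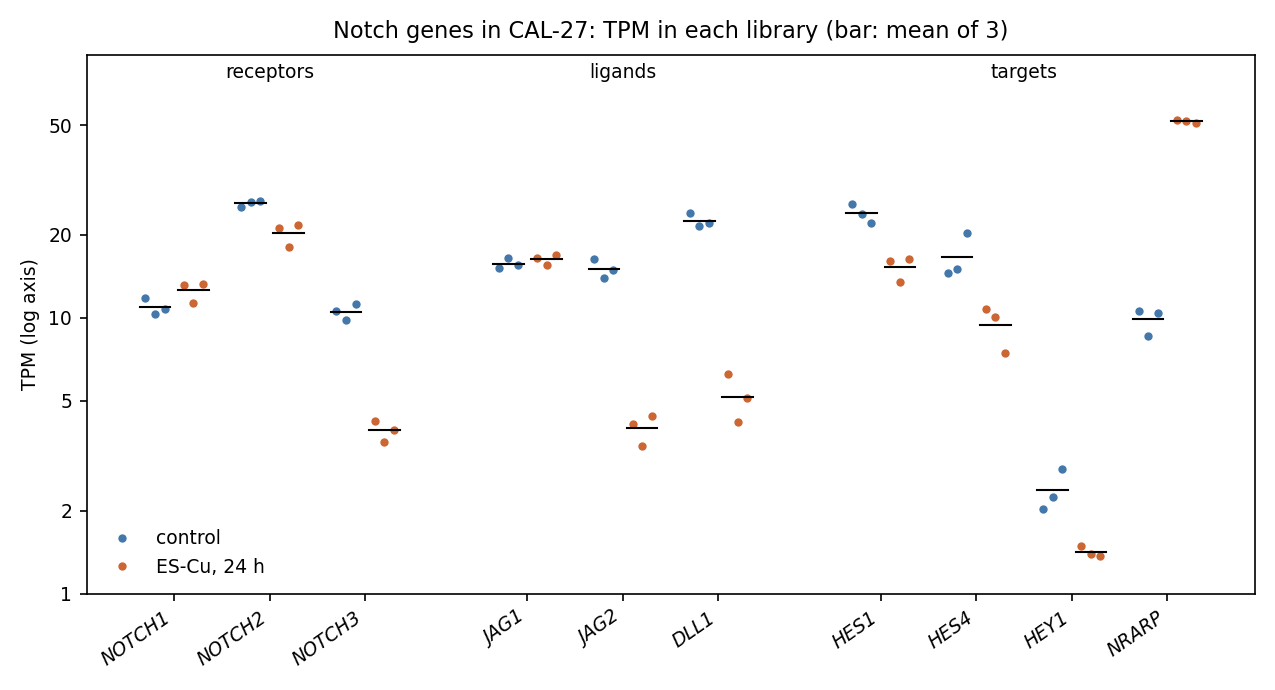
TPM of the 10 Notch genes on a log axis, 1 point per library, control in blue and ES-Cu in orange, with a bar at the mean of 3. NRARP is the only member whose ES-Cu points all lie above control (51.2 to 52.1 against 8.60 to 10.6 TPM), and the groups of NOTCH1 and of JAG1 overlap.

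The receptors changed unequally. NOTCH3 fell: its TPM was 10.6, 9.81 and 11.3 in the control libraries and 4.24, 3.56 and 3.93 in the ES-Cu libraries. Every ES-Cu library was below every control library, and the mean dropped 2.70-fold, from 10.6 ± 0.730 to 3.91 ± 0.340 TPM (log2 fold change -1.23 on the log2(TPM + 1) scale, SE 0.095, adjusted p = 3.73e-07, limma-trend). That scale understates the changes of low genes. After median-of-ratios scaling the log2 fold change of NOTCH3 was -0.76 (adjusted p = 2.94e-05) and after quantile normalization -0.63 (adjusted p = 1.21e-04, limma-trend).

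NOTCH1, the receptor most tied to keratinocyte differentiation, was at 11.8, 10.3 and 10.8 TPM in control and 13.1, 11.3 and 13.3 TPM in ES-Cu. The groups overlapped, since the lowest ES-Cu library lay below the highest control library. The log2 fold change was 0.18 (95% interval -0.01 to 0.38, adjusted p = 0.0671, limma-trend). It was called higher without control replicate 1 (0.23, adjusted p = 0.0468) or ES-Cu replicate 2 (0.25, adjusted p = 0.0199), after median-of-ratios scaling (0.70, adjusted p = 2.5e-05) and after quantile normalization (0.72, adjusted p = 2.04e-05, limma-trend).

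NOTCH2 was the most abundant receptor in both groups, at 25.3, 26.4 and 26.6 TPM in control and 21.1, 18.1 and 21.6 TPM in ES-Cu. Every ES-Cu library was below control, but the direction depended on the scaling: the log2 fold change was -0.35 as deposited (adjusted p = 9.9e-04), 0.18 after median-of-ratios scaling (adjusted p = 0.0276) and 0.064 after quantile normalization (adjusted p = 0.403, limma-trend). NOTCH2 shares its first exons with the NOTCH2NL genes, so short reads may be assigned to either. The 3 such genes in the table were lower than NOTCH2, with NOTCH2NLB at 6.41 ± 0.312 and 4.88 ± 1.11 TPM, NOTCH2NLA at 4.32 ± 0.467 and 5.29 ± 0.374 TPM, and NOTCH2NLC at 1.10 ± 0.122 and 0.707 ± 0.0666 TPM in control and ES-Cu.

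Among the ligands, which are presented by the neighbouring cell, the Delta-type ligand DLL1 and the Jagged ligand JAG2 fell, and JAG1 was not called as deposited. DLL1 was the most abundant ligand in control, at 23.9, 21.6 and 22.2 TPM, and stood at 6.26, 4.19 and 5.11 TPM in ES-Cu. The ES-Cu libraries were all below control, a 4.35-fold drop of the mean, from 22.6 ± 1.24 to 5.19 ± 1.04 TPM (log2 fold change -1.94, SE 0.114, adjusted p = 4.97e-08, limma-trend). Of 11927 tested genes, 78 had a lower fold change than DLL1. JAG2 went from 16.3, 13.9 and 14.9 TPM to 4.11, 3.42 and 4.40 TPM. Its mean dropped 3.78-fold with no overlap, from 15.1 ± 1.20 to 3.98 ± 0.503 TPM (log2 fold change -1.69, SE 0.101, adjusted p = 5.74e-08, limma-trend). After median-of-ratios scaling the log2 fold changes of DLL1 and JAG2 were -1.44 and -1.21, and after quantile normalization -1.42 and -1.12.

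JAG1, the other Jagged ligand, was at 15.2, 16.5 and 15.6 TPM in control and 16.5, 15.5 and 17.0 TPM in ES-Cu. The groups overlapped, and the log2 fold change was 0.047 (95% interval -0.11 to 0.20, adjusted p = 0.535, limma-trend). Relative to the median gene it was higher: after median-of-ratios scaling its log2 fold change was 0.57 (adjusted p = 1.81e-05) and after quantile normalization 0.52 (adjusted p = 4.01e-05, limma-trend).

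Among the targets, NRARP rose. It was at 10.6, 8.60 and 10.4 TPM in the control libraries while the ES-Cu libraries held 52.1, 51.9 and 51.2 TPM. The groups were far apart, and the mean rose 5.24-fold, from 9.87 ± 1.11 to 51.7 ± 0.477 TPM (log2 fold change 2.28, SE 0.077, adjusted p = 1.24e-09, limma-trend). Only 70 of the 11927 tested genes had a larger rise on the deposited scale. The log2 fold change was 2.81 after median-of-ratios scaling and 2.74 after quantile normalization.

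HES1, the founding HES repressor of the Notch response, was at 25.9, 23.9 and 22.0 TPM in control and 16.1, 13.4 and 16.4 TPM in ES-Cu. All ES-Cu libraries were below control, and the log2 fold change was -0.61 (SE 0.089, adjusted p = 5.72e-05, limma-trend). That places it at percentile 42.2 of the fold changes of all tested genes, and after median-of-ratios scaling (-0.083, adjusted p = 0.387) and quantile normalization (-0.17, adjusted p = 0.0836, limma-trend) it was not called. HES4, a close relative with the same paired letters upstream, was at 14.6, 15.0 and 20.4 TPM in control and 10.8, 10.1 and 7.48 TPM in ES-Cu. The groups did not overlap as deposited (log2 fold change -0.76, adjusted p = 4.32e-04), but HES4 was not called after median-of-ratios scaling (-0.24, adjusted p = 0.159) or quantile normalization (-0.24, adjusted p = 0.158, limma-trend). HEY1, a bHLH repressor of the HEY branch and the lowest member, was at 2.02, 2.25 and 2.83 TPM in control and 1.49, 1.39 and 1.37 TPM in ES-Cu. On the deposited scale the log2 fold change was -0.47 (adjusted p = 0.00552), -0.11 after median-of-ratios scaling (adjusted p = 0.436) and 0.16 after quantile normalization (adjusted p = 0.26, limma-trend).

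**Figure D2:**
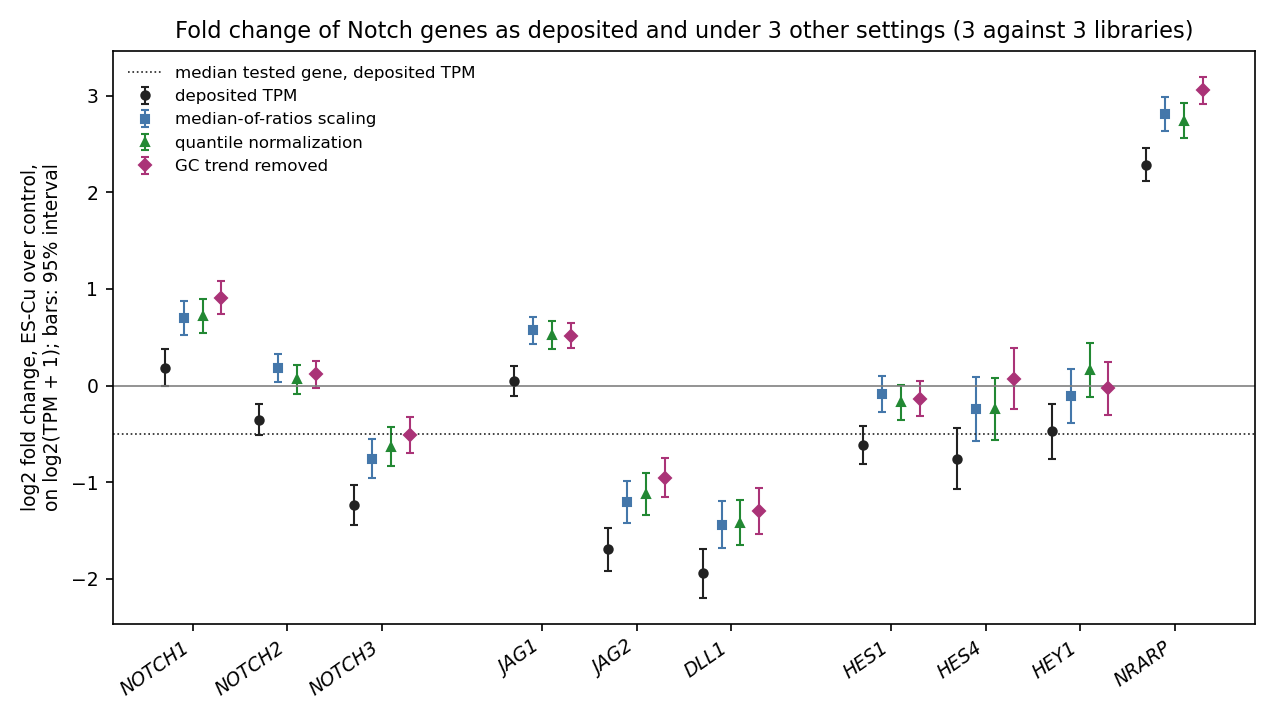
Log2 fold change (ES-Cu over control, on log2(TPM + 1)) of each member with its 95% interval from limma, as deposited and under 3 other settings, with 3 libraries per group. NRARP lies between 2.28 and 3.05 and NOTCH3, JAG2 and DLL1 lie below 0 in every setting shown, whereas NOTCH2, HES1, HES4 and HEY1, below 0 as deposited, lie between -0.24 (HES4) and 0.18 (NOTCH2, after median-of-ratios scaling) in the others.

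GC content was looked at because the members' transcripts were richer in G and C than most: the longest GENCODE transcript held 47.3% (HEY1) to 73.9% (HES4), with a median of 60.6%, against a median of 48.8% over tested genes. With the GC trend of each library removed, an alternative added after the data had been seen, NRARP had a log2 fold change of 3.05, NOTCH1 of 0.91 and JAG1 of 0.52, and DLL1, JAG2 and NOTCH3 had -1.30, -0.95 and -0.51, all called (largest adjusted p = 3.77e-04, limma-trend). That is 3 members higher and 3 lower, against 36.7% and 34.9% of the genes tested in that setting. HES1 (-0.14), HES4 (0.073), HEY1 (-0.028) and NOTCH2 (0.12) were not called in that setting.

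Shares within a library do not depend on a common scaling factor, so they show the unequal changes directly. NOTCH1 made up 23.0% ± 1.47 of the summed TPM of the 3 receptors in control and 34.3% ± 0.122 in ES-Cu, and NOTCH3 22.1% ± 1.03 and 10.6% ± 0.476. For both, the groups did not overlap. NOTCH2 held 54.8% ± 1.84 and 55.1% ± 0.459, with overlap. NOTCH1 and NOTCH3 were at a ratio of 1.04 ± 0.0780 in control and of 3.23 ± 0.150 in ES-Cu.

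The ligand make-up shifted further. JAG1 was 29.6% ± 2.18 of the ligand sum in control and 64.2% ± 2.85 in ES-Cu, DLL1 42.3% ± 0.872 and 20.3% ± 2.72, and JAG2 28.2% ± 1.32 and 15.6% ± 0.941, without overlap for any of them. The leading ligand was thus DLL1 in every control library and JAG1 in every ES-Cu library. The ratio of DLL1 to JAG2, by contrast, was 1.501 ± 0.0405 and 1.303 ± 0.193, with overlap. NRARP took 18.6% ± 1.36 of the target sum in control and 66.4% ± 1.53 in ES-Cu, and its ratio to HES1 went from 0.414 ± 0.0564 to 3.40 ± 0.402. The target sum was 52.9 ± 2.94 TPM in control against 77.9 ± 2.24 TPM in ES-Cu, whereas HES1, HES4 and HEY1 together were at 43.0 ± 2.06 and 26.2 ± 1.94 TPM. HES4 and HES1 stood at a ratio of 0.706 ± 0.194 and 0.624 ± 0.151, with overlap. With 3 libraries a group no exact test of a single share could go below p = 0.1, so none is given.

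**Figure D3:**
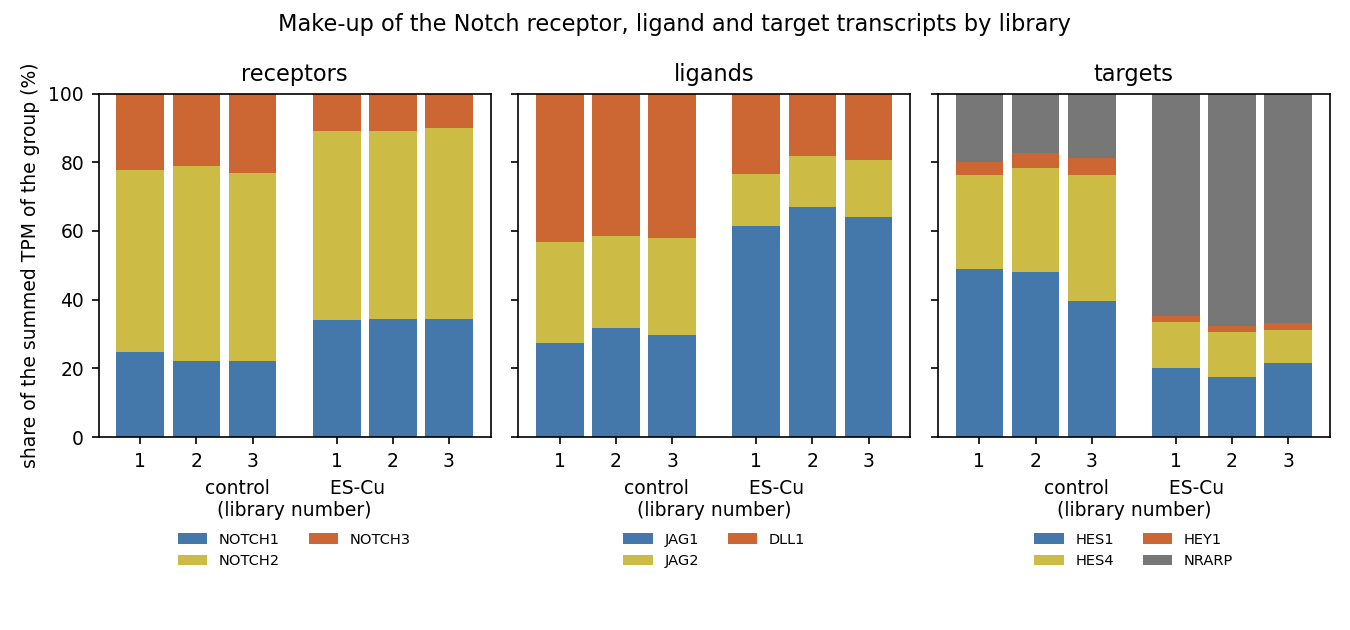
Share (%) of each gene in the summed TPM of the 3 receptors, the 3 ligands and the 4 targets, 1 stacked bar per library. JAG1 goes from 27.4% to 31.8% of the ligand sum in control to 61.4% to 67.1% in ES-Cu, and NRARP from 17.3% to 19.98% of the target sum to 64.7% to 67.6%.

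The order of the members by TPM also differed between the groups. In control it ran NOTCH2, HES1, DLL1, HES4, JAG1, JAG2, NOTCH1, NOTCH3, NRARP, HEY1, and the library ranges of neighbours were apart only between DLL1 and HES4, between JAG2 and NOTCH1, and between NRARP and HEY1. In ES-Cu it ran NRARP, NOTCH2, JAG1, HES1, NOTCH1, HES4, DLL1, JAG2, NOTCH3, HEY1. There the ranges of JAG1 and HES1, of DLL1 and JAG2, and of JAG2 and NOTCH3 overlapped, and those of all other neighbours were apart.

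A further 72 genes of the pathway were listed by role, of which 69 were in the table and 61 had a mean of at least 1 TPM. Of these, 5 rose and 23 fell in all 3 scalings (8.20% and 37.7%, against 13.5% and 30.5% of tested genes), and their median log2 fold change was -0.63 as deposited. These counts leave out the 8 genes under the minimum, NOTCH4, DLL3, DLL4, HES7, HEY2, DTX1, MAML3 and TLE2. On the deposited scale 5 of the 61 were called higher and 40 lower, where 13.6% and 70.0% of all tested genes were called. Under median-of-ratios scaling 16 of the 61 fold changes turned from below 0 to above 0, and HDAC1, ITCH, NEDD4 and SNW1, named after their values had been seen, were called lower as deposited and higher there.

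RBPJ, the single DNA-binding protein through which all Notch receptors act, fell. It was at 74.8, 75.01 and 68.1 TPM in control and 27.2, 27.4 and 27.9 TPM in ES-Cu. All ES-Cu libraries were below control by a wide margin (log2 fold change -1.37, SE 0.054, adjusted p = 3.62e-09, limma-trend; -0.82 after median-of-ratios scaling). In the nuclear complex list, 4 of 8 tested genes fell and 2 rose in all 3 scalings, beside 30.5% and 13.5% of all tested genes. The coactivator MAML2 (-1.29) and the acetyltransferase gene KAT2A (-1.31) fell with RBPJ. The acetyltransferases EP300 (0.49) and CREBBP (0.47) rose, while MAML1 was at -0.49 as deposited and at 0.04, not called, after median-of-ratios scaling (adjusted p = 0.588, limma-trend). Of 14 tested co-repressor genes, 4 fell and 0 rose in all 3 scalings, beside the same 30.5% and 13.5%. Those that fell included CTBP1 (-1.33), TLE1 (-1.18) and KDM1A (-0.85). The 8 co-repressor genes not called as deposited were all called higher after median-of-ratios scaling and after quantile normalization. The median log2 fold change of the 14 was -0.12 as deposited, 0.41 after median-of-ratios scaling and 0.295 after quantile normalization.

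In the cleavage machinery, 5 of 9 tested genes fell and 1 rose in all 3 scalings, beside 30.5% and 13.5% of all tested genes. ADAM10, the main protease for ligand-induced cleavage, fell from 85.3 ± 1.77 to 46.3 ± 1.03 TPM, and its relative ADAM17 rose from 31.9 ± 0.710 to 41.0 ± 1.33 TPM. Of the gamma-secretase subunits, PSEN2 (-1.33), NCSTN (-0.95) and APH1A (-0.87) fell.

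Enzymes that add sugars to the receptor's EGF repeats, and so set which ligands it answers to, included 5 of 9 tested genes that fell and 0 that rose in all 3 scalings, beside the same 30.5% and 13.5%. The other 4 did not keep a call in all 3: GXYLT1 was at -0.04 as deposited with overlapping groups and was called higher after median-of-ratios scaling (0.42) and quantile normalization (0.58), and EOGT (0.46) and MFNG (0.505) were called higher after quantile normalization. GXYLT2 went the other way, called lower as deposited (-0.87) and after median-of-ratios scaling (-0.56). It was not called after quantile normalization (-0.29, adjusted p = 0.201, limma-trend). LFNG, the Lunatic fringe glycosyltransferase, fell from 17.3 ± 0.390 to 3.29 ± 0.577 TPM (log2 fold change -2.10). XXYLT1 (-1.46) and POFUT1, which adds the fucose that Fringe extends (-1.31), also fell. The other Fringe genes were RFNG, at 21.3 ± 0.135 and 11.9 ± 1.25 TPM, and MFNG, at 3.98 ± 0.863 and 3.49 ± 0.208 TPM. RFNG, one of the 5, was at -0.033 once the GC trend had been removed (adjusted p = 0.727, limma-trend). GXYLT1, GXYLT2, EOGT, RFNG and MFNG were added to the named genes after their values had been seen.

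All 7 tested genes of ligand ubiquitination and endocytosis were called lower as deposited, where 70.0% of all tested genes were. In all 3 scalings 1 of the 7 fell, beside 30.5% of all tested genes. NEURL1B, a ubiquitin ligase for ligand endocytosis, fell from 6.84 ± 0.327 to 0.353 ± 0.0252 TPM (adjusted p = 6.85e-09, limma-trend), a log2 fold change of -2.53, and was that gene. Of 9 tested trafficking and turnover genes, 2 fell and 1 rose in all 3 scalings, beside 30.5% and 13.5% of all tested genes. FBXW7, the ubiquitin ligase adaptor that marks the Notch intracellular domain for breakdown, rose from 6.49 ± 0.736 to 12.5 ± 0.645 TPM (log2 fold change 0.85). DTX2, a Deltex gene, fell (-0.80), although with the GC trend removed it was at -0.09 and not called (adjusted p = 0.129, limma-trend). NUMB, an endocytic inhibitor of Notch, averaged 41.7 ± 1.63 TPM in control against 43.5 ± 1.53 TPM (a log2 fold change of 0.059 with an adjusted p of 0.318, limma-trend), and was called higher after median-of-ratios scaling (0.60) and quantile normalization (0.41).

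Outside the canonical set, the non-canonical ligand genes moved in opposite directions. DLK2 fell from 7.68 ± 1.21 to 0.887 ± 0.126 TPM and DNER rose from 2.68 ± 0.470 to 5.14 ± 0.664 TPM (log2 fold changes -2.19 and 0.74). The receptor gene NOTCH4 and the ligand genes DLL3 and DLL4 stayed below 0.5 TPM in every library. Of 3 tested other HES and HEY genes, 1 fell in all 3 scalings, beside 30.5% of all tested genes. It was HES2, at -1.15, named after its value had been seen.

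**Figure D4:**
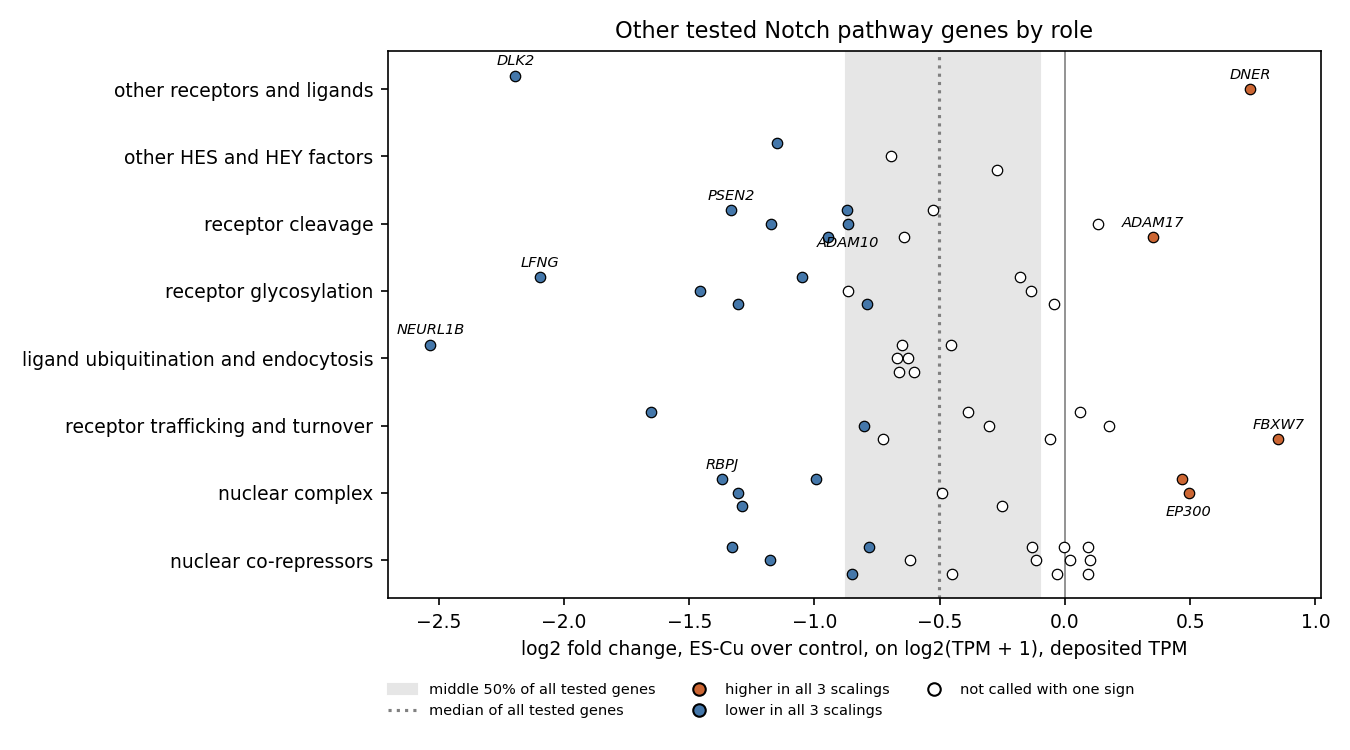
Log2 fold change (ES-Cu over control, deposited TPM) of the 61 other tested Notch pathway genes by role, 1 point per gene, coloured by the call in all 3 scalings, with the middle 50% of all tested genes in grey. NEURL1B, DLK2 and LFNG lie farthest to the left, and FBXW7 and DNER farthest to the right.

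The member with the largest change, NRARP, was set beside all tested genes by the distance between profiles of log2(TPM + 1) over the 6 libraries, each gene centred on its control mean. Near it lay NR4A1, an immediate early nuclear receptor gene (distance 0.176), and the stress-responsive kinase gene PLK3 (0.1798). NR4A1 was at 5.79 ± 0.650 and 31.6 ± 2.22 TPM and PLK3 at 7.36 ± 0.687 and 41.4 ± 2.44 TPM in control and ES-Cu. With 2 groups of libraries the distance mostly reflects a fold change of similar size.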

How the data were processed

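RNA of 6 CAL-27 libraries, 3 control and 3 ES-Cu, was sequenced with single-end reads on the BGISEQ-500 platform, per the labels' protocols. The authors deposited 1 table of TPM for 16809 genes, each library scaled to the same total and rounded. The submitters' processing notes list HISAT and Bowtie2 (no versions) and a mouse build, although 16753 of the gene identifiers (99.7%) matched human RefSeq genes; the quantification tool and annotation are not given in the sources used here. Depth is unknown, so no interval of counting error or detection limit is given.

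The test was a two-sided limma fit (limma 3.58.1, R 4.3.3) to log2(TPM + 1) of genes whose mean reached 1 TPM (empirical Bayes, variance trended on the mean, Benjamini-Hochberg over 11927 genes, threshold 0.05, no block for the replicate number). The 3 scalings were the deposited TPM, median-of-ratios scaling and quantile normalization over tested genes. Other settings are in the closing section. The code was tested on simulated libraries. Promoters came from RefSeq (GRCh38.p14), and transcript GC content from GENCODE (found for 99.4% of tested genes). The members and lists were chosen with earlier results of these data known. Named were all members, core partners (RBPJ, ADAM10, ADAM17, NCSTN, MAML1, FBXW7, NUMB), up to 3 genes per role list with the largest change among those called with the same sign in all 3 scalings at 5 TPM or more in a group, and the 3 profiles nearest to NRARP; some genes that the rule takes are left out of the text. EP300, CREBBP, NOTCH2NL genes and the motifs were chosen after values were seen.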

Additional observations from a re-analysis of the deposited data

How the results depend on the processing

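The calls of NRARP, NOTCH3, JAG2 and DLL1 kept their direction and passed the threshold in all 17 alternatives run for each. Log2 fold changes ranged from 2.20 to 3.05 for NRARP, -1.41 to -0.51 for NOTCH3, -1.90 to -0.95 for JAG2 and -2.12 to -1.30 for DLL1. Scaling moved most other results. Genes called higher numbered 4532 with median-of-ratios scaling, 3780 with quantile normalization and 4346 after removal of the GC trend, against 1628 as deposited, and genes called lower 4266, 4674 and 4138 against 8351. Members called higher numbered 4, 3 and 3 in those settings and 3 with the 20 highest genes removed, against 1, and members called lower 3, 3 and 3 against 7. Partners called higher numbered 22, 21 and 22, and 12 with the 20 highest genes removed, against 5; partners called lower numbered 25 with median-of-ratios scaling and 22 with the GC trend removed, against 40. Among the members and the core partners named by rule, reversed fold changes were those of NOTCH2 (0.18, 0.064 and 0.12 in the 3 settings), MAML1 (0.04 with median-of-ratios scaling and 0.095 with the GC trend removed), HEY1 (0.16, quantile) and HES4 (0.073, GC trend removed). Of all 61 partners, 16, 11 and 18 reversed in the 3 settings, each from lower to higher. The causes were not tested.

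Leaving out each library gave 1502 to 1593 genes higher and 8088 to 8278 lower, 1 to 2 members higher and 7 lower, and 5 to 6 partners higher and 40 to 41 lower. The second member called higher was NOTCH1. The NOTCH2 share of the receptor sum, 0.29 percentage points higher in ES-Cu, ranged from -0.58 (without control replicate 1) to 1.25 (without control replicate 2). HEY1 could not be tested with a minimum of 5 TPM. A replicate block changed no member's call (7 lower and 1 higher with the block). Deviations of same-numbered libraries correlated at 0.0206, -0.0337 and 0.0107 across genes, so no shared effect of the replicate number was seen. Correlations this small cannot show whether such libraries were made together, and the labels do not say. Pseudocounts, filters, the trend and array weights changed no member's call. Unknown depth limits low genes such as HEY1 most.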

Other observations

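The paired letters found upstream of HES1 and HES4 (GTGNGAA followed within 40 bases by its reverse complement) were present in 24 promoter windows, of which 6 belonged to tested genes. Beside HES1 and HES4 these were FST, TRIM5, PCGF2 and RRP7A. Their log2 fold changes as deposited were -0.43 for FST, which encodes follistatin, -0.83 for TRIM5, -0.66 for the Polycomb gene PCGF2 and -0.19 for RRP7A, and TRIM5 alone fell in all 3 scalings. This list was chosen from sequence after the members' values had been seen, and no test was made of it. ITIH4, which has the same 23-base distance as HES1 and HES4, averaged 1.18 TPM in control against 0.633 TPM in ES-Cu and lay below the minimum for testing.

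TP63, a lineage factor of squamous epithelium, fell from 86.8 ± 1.34 to 24.5 ± 0.922 TPM and CDH1, which encodes E-cadherin, from 174 ± 2.33 to 71.3 ± 3.01 TPM, whereas KRT6A rose from 174 ± 3.90 to 234 ± 6.92 TPM. The keratin gene KRT5 averaged 853 ± 22.8 TPM in control against 853 ± 21.6 TPM in ES-Cu (adjusted p = 0.98, limma-trend). It was not called after quantile normalization either (-0.030, adjusted p = 0.48, limma-trend). KRT5 was called higher after median-of-ratios scaling (0.56, adjusted p = 5.04e-07) and once the trend on GC content had been taken out (0.61, adjusted p = 2.26e-07, limma-trend). These markers of the cell line moved in the same libraries as the Notch genes, and their part in the Notch results was not tested.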
